A study of Homo sapiens with 12 samples.

Results

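The regions bound by E2F1 and by NPAT were set against each other within each of 2 human cell lines, at 4110 enriched regions of the 1117273 regions listed for these 4 libraries (1636159 were listed for the 8 libraries of the series). A region was called enriched when it held at least 30 ChIP sequences and when its ratio, the ChIP sequences plus 1 over the IgG sequences plus 1, was at least 3. In hTERT-RPE1 cells, epithelial cells of the retina immortalized with telomerase, 1742 E2F1 regions and 332 NPAT regions were enriched. In U2OS cells, an osteosarcoma line, 841 E2F1 regions and 1195 NPAT regions were enriched. At each enriched region the overlapping listed region of the other factor, here its counterpart, was taken whatever its counts, and where several overlapped, the one sharing the most bases was used. All results were split by place, inside or outside chromosome 6 from 26100 to 28000 kb (NCBI36), a window that holds the large histone gene cluster of this chromosome.

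Cells with no treatment named in the labels were cross-linked with formaldehyde, chromatin was sheared to between 200 and 400 bp, and 5 µg of E2F1 or NPAT antibody was used per precipitation, with 1 library per factor and line. E2F1 and NPAT of a line shared the same rabbit IgG library as control. There were no replicates, so no test between conditions was possible. Shares and ratios carry exact 95% (Clopper-Pearson) intervals that cover counting error only. The interval of a median was taken from the ranked values of its regions. It describes the spread over regions, which are not replicates. The interval of a ratio is that of ChIP over IgG sequences without the added 1, and a factor was called higher than the other at a site only when the 2 intervals did not overlap. Both factors of a site share their IgG reads in part, so the intervals are not independent.

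E2F1 is a transcription factor that drives genes needed for entry into S phase. NPAT is a coactivator phosphorylated by cyclin E and CDK2, and it gathers in the histone locus body, where the replication-dependent histone genes are transcribed at the start of S phase. Histone genes and the classical E2F1 targets are thus switched on at nearly the same time of the cell cycle, and the comparison asks whether the 2 factors were found at the same places.

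The kind of promoter held by the histone cluster was read from RefSeq, in a window from 250 bases before to 50 bases after the gene start (GRCh38.p14). Of the 55 replication-dependent histone genes found on chromosome 6 by symbol, 50 had an entry, with 54 windows. An E2F site was searched as TTTCGCGC, TTTGGCGC, TTTCCCGC or TTTGCCGC on both strands, and the octamer, the element of H2B promoters, as ATTTGCAT. The E2F letters were present in 16 of 54 histone windows (29.6%) against 3.31% of all 35116 promoter windows, in 5 of 11 H2A windows, 6 of 17 H2B, 1 of 10 H3, 4 of 10 H4 and 0 of 6 H1 windows. In 13 of these 16 the letters lay wholly before the gene start (24.1% of histone windows, against 2.79% of all). For H4 this left 1 of 10 windows, and the other families kept their counts. The octamer was in 23 of 54 histone windows (42.6%) against 1.77% of all, 13 of them H2B and 9 H2A. Several genes had more than 1 window, and overlap between windows of neighbouring genes was not removed. The same letters may thus be counted more than once in these shares. The H2B gene H2BC11 (older name HIST1H2BJ) is shown as an example with both elements in capitals, the E2F site as the reverse complement of the first form (chr6:27132796-27133045, GRCh38.p14, minus strand, the 250 bases before its start). The ChIP positions are in NCBI36 and were not converted, so this window is not placed beside any bound region, and a match of letters is a description only.
H2BC11: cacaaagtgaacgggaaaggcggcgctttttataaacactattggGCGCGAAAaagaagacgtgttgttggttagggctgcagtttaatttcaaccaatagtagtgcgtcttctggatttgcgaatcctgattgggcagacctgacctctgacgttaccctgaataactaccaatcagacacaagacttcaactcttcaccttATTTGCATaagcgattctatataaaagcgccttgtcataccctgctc

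The lists differed in size, with 214407 E2F1 and 299405 NPAT regions in hTERT-RPE1 cells and 125446 E2F1 and 478015 NPAT regions in U2OS cells. From the constants in the deposited fold changes, the NPAT library was 1.02 times as deep as the E2F1 library for hTERT-RPE1 and 1.30 times for U2OS. The raw ratio keeps this difference in depth, which favours NPAT in U2OS cells. The larger number of enriched NPAT regions there depended on the setting. With a depth-scaled fold change of at least 3, 926 E2F1 and 618 NPAT regions of U2OS cells were enriched. The numbers were 348 and 144 with at least 50 ChIP sequences, and 938 and 514 with p under 0.00001 and fold change above 2. NPAT kept the larger number with a ratio of at least 5 (255 and 267) and with no minimum of ChIP sequences (26845 and 161063). The share of listed regions that were enriched was 0.812% for E2F1 and 0.111% for NPAT in hTERT-RPE1 cells, and 0.67% and 0.25% in U2OS cells. The counts stop at the threshold with no gap: 470 E2F1 regions with at least 30 ChIP sequences in hTERT-RPE1 cells had a ratio from 3 to 3.5, and 562 had one from 2.5 to just under 3. For NPAT in U2OS cells these numbers were 455 and 685.

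Each factor was enriched more often inside the histone window than outside it, and NPAT by the larger factor. NPAT was enriched in 28 of its 262 listed regions inside the window for hTERT-RPE1 (10.7%) and in 27 of 331 for U2OS (8.16%), against 0.102% and 0.245% of its listed regions elsewhere. E2F1 was enriched in 7 of 195 listed regions inside the window for hTERT-RPE1 (3.59%) and in 4 of 132 for U2OS (3.03%), against 0.810% and 0.668% elsewhere. The lists lay almost wholly outside the window, and so did most enriched regions, 1735 and 837 for E2F1 and 304 and 1168 for NPAT.

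Outside the window few E2F1-enriched regions overlapped an NPAT-enriched region, though more of them than of all listed E2F1 regions, and inside the window most did. Of the hTERT-RPE1 lists, 33 of 1735 E2F1-enriched regions overlapped an NPAT-enriched region (1.90%, 95% interval 1.31% to 2.66%), and in U2OS cells 36 of 837 did (4.30%, 3.03% to 5.91%), against 0.099% and 0.39% of all listed E2F1 regions outside. Seen from NPAT, these were 33 of 304 regions (10.9%, 7.59% to 14.9%) and 36 of 1168 (3.08%, 2.17% to 4.24%), against 0.296% and 0.156% of all listed NPAT regions outside that overlapped an E2F1-enriched one. Inside the window 6 of 7 E2F1-enriched regions for hTERT-RPE1 (85.7%, 42.1% to 99.6%) and 3 of 4 for U2OS (75%, 19.4% to 99.4%) overlapped an NPAT-enriched region, where 22.6% and 25.8% of all listed E2F1 regions did. The reverse share was 6 of 28 NPAT-enriched regions (21.4%, 8.30% to 41.0%) and 3 of 27 (11.1%, 2.35% to 29.2%), against 2.29% and 0.906% of all listed NPAT regions inside. So few E2F1 regions lay in the window, those few mostly lay on NPAT regions, and most NPAT regions in the window were without an enriched E2F1 region.

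**Figure D1:**
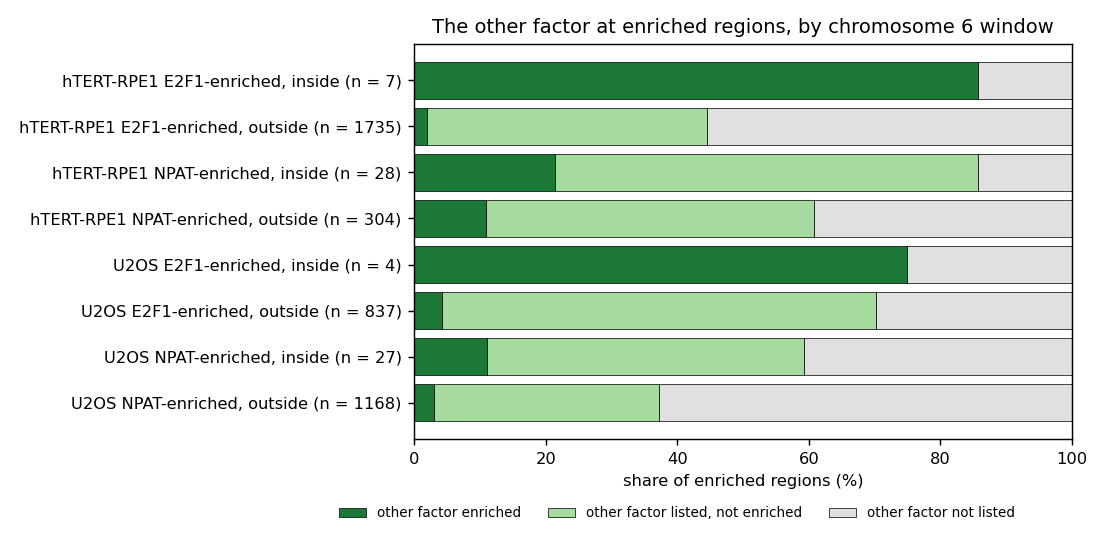
Share of enriched regions (%) that overlapped an enriched region of the other factor (dark green), only listed regions that were not enriched (light green) or no listed region (grey), for each line, factor and place. The dark share is 85.7% and 75% for E2F1 inside the window and between 1.90% and 10.9% in the 4 bars for outside.

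A listed counterpart is a weaker statement than an enriched one, since lists hold any pileup of at least 8 reads. Of all listed E2F1 regions, 14.5% overlapped a listed NPAT region for hTERT-RPE1 and 33.3% did for U2OS, and of all listed NPAT regions 10.4% and 9.1% overlapped a listed E2F1 region. Among the E2F1-enriched regions outside the window, 772 of 1735 (44.5%) and 588 of 837 (70.3%) had a listed NPAT counterpart. Among the NPAT-enriched regions outside, 185 of 304 (60.9%) and 435 of 1168 (37.2%) had a listed E2F1 counterpart. Enriched regions were longer than listed ones, with a median of 730 bp for E2F1 outside the window in hTERT-RPE1 cells against 290 bp for the whole list, and the part of this length in the overlap was not tested.

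The NPAT counterpart of E2F1-enriched regions had a higher median ratio inside the window than outside, and the E2F1 counterpart of NPAT-enriched regions had a lower one, an order that some of the alternative settings turned. At E2F1-enriched regions outside the window the listed NPAT counterpart had a median ratio of 2.0 in each line, below the medians of all listed NPAT regions outside, 2.40 for hTERT-RPE1 and 2.25 for U2OS. It was above them with a ratio of at least 5 (2.57 and 2.47) and with no minimum of ChIP sequences (3.33 and 3.25). Inside the window the NPAT counterpart of E2F1-enriched regions had a median ratio of 10.0 for hTERT-RPE1 (6 regions, 3.06 to 13.6) and of 9.28 for U2OS (3 regions, 7.84 to 9.38). At NPAT-enriched regions the E2F1 counterpart had a median of 2.0 inside and 2.25 outside in hTERT-RPE1 cells. The U2OS medians were 1.61 inside and 2.14 outside. The inside value was the higher with at least 50 ChIP sequences in hTERT-RPE1 cells (2.0 against 1.78), and in U2OS cells with the counterpart of most ChIP sequences (2.40 against 2.12) and without regions of more than 50 IgG sequences (2.72 against 2.15). These E2F1 medians lie close to those of all listed E2F1 regions, which were 1.80 inside and 2.20 outside in hTERT-RPE1 cells, and 1.57 and 1.83 in U2OS cells. Counterparts that are not listed have no value and are missing from these medians.

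**Figure D2:**
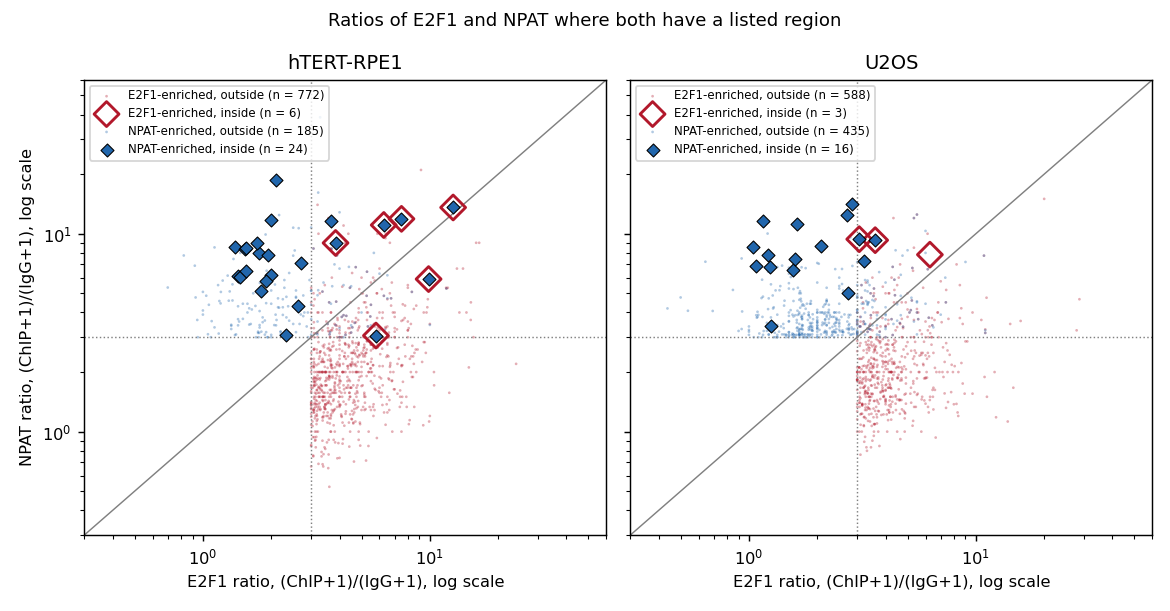
E2F1 ratio (x) against NPAT ratio (y), both on log scales, at enriched regions whose counterpart is listed. Red points are E2F1-enriched and blue points NPAT-enriched regions outside the window, red diamonds and filled blue diamonds those inside, dotted lines mark a ratio of 3 and the grey line marks equal ratios. Points outside the window form an arm along each axis, and those inside lie mostly above the line of equal ratios. Each point was kept for a ratio of at least 3 of its own factor, so these positions depend on the choice. The points inside are 24 NPAT-enriched and 6 E2F1-enriched regions in hTERT-RPE1 cells, and 16 and 3 in U2OS cells.

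Whether the intervals of a site lie apart depends on its counts. Each region was kept for a high value of its own factor, so the choice favoured that direction and nothing is read from it. NPAT-enriched regions had a median of 195.5 ChIP sequences inside and 36 outside in hTERT-RPE1 cells, and of 140 and 34 in U2OS cells. Inside the window NPAT was higher than E2F1 at 13 of the 24 NPAT-enriched regions of hTERT-RPE1 cells that had an E2F1 counterpart, and at 10 of 16 in U2OS cells. The intervals overlapped at the other 11 and 6. From the E2F1 side, they overlapped at all 6 E2F1-enriched regions with a counterpart inside the window in hTERT-RPE1 cells and at 2 of 3 in U2OS cells. At the remaining region of U2OS cells, chr6:26139951-26140588, NPAT was higher by the raw intervals. Outside the window NPAT was higher at 26 of 185 and 29 of 435 NPAT-enriched regions, and E2F1 was higher at 59 of 772 and 49 of 588 E2F1-enriched regions. With the NPAT intervals divided by the depth ratio of the libraries, an alternative chosen after seeing the data, the counts inside were 13 and 9, and in U2OS cells those outside were 18 for NPAT and 90 for E2F1.

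Of the 5 NPAT regions of the window with the highest lower bound of the interval, 3 of the hTERT-RPE1 list and 1 of the U2OS list overlapped an enriched E2F1 region and are described with the shared sites. The other 2 and 4 had an E2F1 ratio under 3. In hTERT-RPE1 cells chr6:26211654-26213278 had 410 NPAT and 21 IgG sequences, a ratio of 18.7, and the E2F1 counterpart had 43 and 20, a ratio of 2.10. The same place in U2OS cells, chr6:26211281-26212720, had 140 NPAT and 9 IgG sequences (14.1), with 16 and 5 for E2F1 (2.83). The intervals of the 2 factors did not overlap in hTERT-RPE1 cells. They overlapped in U2OS cells, where both counts were lower.

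The next region was chr6:26133779-26136399 in hTERT-RPE1 cells, with 444 NPAT and 37 IgG sequences (11.7) against 27 and 13 for E2F1 (2.0). In U2OS cells chr6:26133346-26136494 had 605 and 53 (11.2) against 48 and 29 for E2F1 (1.63). NPAT was higher by its interval at this place in each line. Of the other strong NPAT regions of U2OS cells without enriched E2F1, chr6:26312211-26314484 had 395 and 31 (12.4) with E2F1 at 18 and 6 (2.71), and chr6:27222412-27223765 had 253 and 21 (11.5) with E2F1 at 21 and 18 (1.16). NPAT was higher at the latter, and the intervals overlapped at the former.

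Among the 22 NPAT-enriched regions of the window without an enriched E2F1 region in hTERT-RPE1 cells, 15 were NPAT-enriched in U2OS cells too, and 17 of the 24 such regions of U2OS cells were NPAT-enriched in hTERT-RPE1 cells. Outside the window these shares were 78 of 271 and 84 of 1132. E2F1-enriched regions without enriched NPAT outside the window were E2F1-enriched in the other line in 524 of 1702 cases for hTERT-RPE1 cells and in 521 of 801 for U2OS cells.

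**Figure D3:**
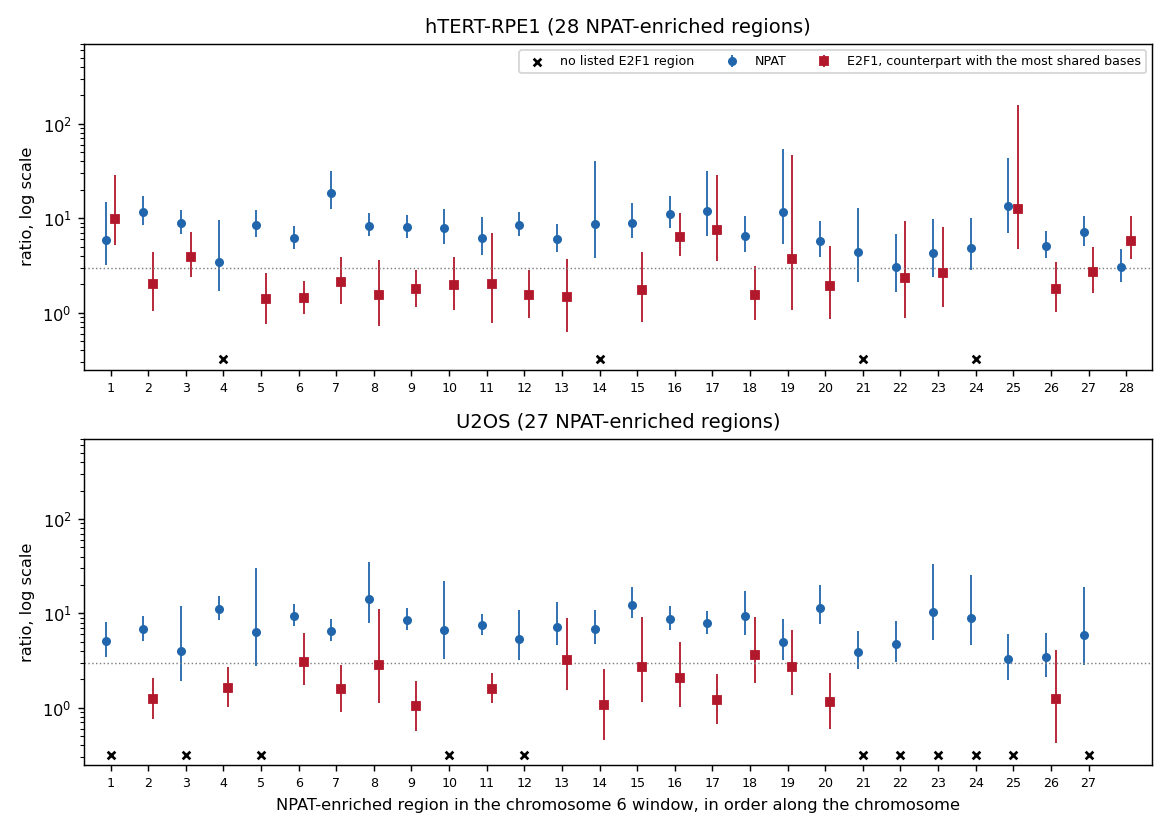
Ratio (log scale) of NPAT (blue circles) and of its E2F1 counterpart (red squares) at each NPAT-enriched region of the chromosome 6 window, in order along the chromosome, with exact 95% counting intervals as bars and a cross where no E2F1 region was listed. The NPAT interval lies wholly above the E2F1 interval at 13 of the regions in the upper panel and at 10 in the lower.

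E2F1 and NPAT were both enriched at 6 sites of the window for hTERT-RPE1 and at 3 for U2OS. A pair of these sites was shared by the lines. At chr6:26139842-26140591 in hTERT-RPE1 cells E2F1 had 72 ChIP and 18 IgG sequences, a ratio of 3.84 (2.36 to 7.13), and the NPAT region around it, chr6:26139319-26142581, had 493 and 54, a ratio of 8.98 (6.88 to 12.3). In U2OS cells E2F1 had 48 and 15 there (chr6:26139951-26140588), a ratio of 3.06 (1.76 to 6.15), and NPAT 609 and 64 (chr6:26139054-26143471), a ratio of 9.38 (7.35 to 12.5). NPAT was higher in U2OS cells by the raw intervals, but not after the depth ratio was divided out, and the intervals overlapped in hTERT-RPE1 cells. The E2F1 summits of the lines were at 26140382 and 26140383, and the NPAT summits lay 169 and 116 bp from them.

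The other shared site was broader in NPAT and had its summits farther apart. In hTERT-RPE1 cells E2F1 had 118 and 18 sequences at chr6:27207481-27209151, a ratio of 6.26 (3.97 to 11.4), and NPAT had 331 and 29 at chr6:27207516-27210129, a ratio of 11.1 (7.80 to 17.3). In U2OS cells E2F1 had 68 and 10 at chr6:27207561-27208101, a ratio of 6.27 (3.48 to 14.8), and NPAT had 485 and 61 at chr6:27207046-27210540, a ratio of 7.84 (6.08 to 10.6). All 4 ratios were above 6, with overlapping intervals in each line. From the E2F1 summit to the NPAT summit it was 1043 bp for hTERT-RPE1 and 1121 bp for U2OS, more than the length of a sheared fragment. The NPAT region of U2OS cells covered 3 listed E2F1 regions, and the one that shared most bases with it had 27 and 22 sequences, which is the value counted in the medians at NPAT-enriched regions.

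The remaining sites met the thresholds for both factors in a single line. At chr6:26129499-26130282 in hTERT-RPE1 cells E2F1 had 78 and 7 sequences (9.88) and NPAT 58 and 9 (5.90), with summits 108 bp apart. In U2OS cells the E2F1 region there had 58 and 20 (2.81) and the NPAT region 351 and 51 (6.77). E2F1 missed the ratio in U2OS cells while NPAT passed it in each line.

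At chr6:27221671-27222115 in hTERT-RPE1 cells E2F1 had 44 and 5 sequences (7.5) and NPAT 106 and 8 (11.9), with summits 14 bp apart. In U2OS cells E2F1 had 29 and 10 (2.73), just under both thresholds, and NPAT 109 and 21 (5.00). At chr6:27913895-27914264 in hTERT-RPE1 cells E2F1 had 37 and 2 (12.7, 4.77 to 158) and NPAT 94 and 6 (13.6, 6.93 to 43.8). The U2OS values there were 9 and 7 for E2F1 (1.25) and 71 and 20 for NPAT (3.43), so this site too kept enriched NPAT in each line and enriched E2F1 in hTERT-RPE1 cells.

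At chr6:27970063-27970780 the order of the factors was turned round, with 109 and 18 sequences for E2F1 (5.79, 3.66 to 10.6) and 103 and 33 for NPAT (3.06, 2.09 to 4.77) in hTERT-RPE1 cells, though the intervals overlapped. In U2OS cells E2F1 had 35 and 6 at this place (5.14) and no NPAT region was listed. The E2F1 summits of the lines were 27970271 and 27970264. At chr6:27214800-27215309 both factors were enriched in U2OS cells, with 35 and 9 sequences for E2F1 (3.60) and 166 and 17 for NPAT (9.28) and summits 13 bp apart, and in hTERT-RPE1 cells E2F1 had 12 and 5 there (2.17) with no listed NPAT region. The last enriched E2F1 region of the window, chr6:27548533-27549096 in hTERT-RPE1 cells, had 68 and 7 (8.62), and NPAT was not listed there. In U2OS cells it had 28 and 9 for E2F1 (2.90) and 13 and 8 for NPAT (1.56).

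The other precipitated factors gave a further readout that the rule did not use, although CASP8AP2 shares the rabbit IgG. CASP8AP2, a protein of the histone locus body, was enriched by the same rule in 0.0608% of its listed regions for hTERT-RPE1 and 0.154% for U2OS, and HINFP, the activator of H4 genes, in 0.143% and 0.263%. CASP8AP2 was enriched at 3 of the 6 sites with both factors inside the window for hTERT-RPE1 and at 3 of 3 for U2OS, and outside at 0 of 33 and 5 of 36. At NPAT-enriched regions of the window without enriched E2F1 it was enriched at 10 of 18 with a listed E2F1 counterpart and 0 of 4 with none in hTERT-RPE1 cells, and at 12 of 13 and 5 of 11 in U2OS cells. HINFP was enriched at 6 of the 18 NPAT-enriched regions of hTERT-RPE1 cells inside the window whose E2F1 counterpart was listed but not enriched, and at 0 of the 6 where E2F1 was enriched. In U2OS cells it was enriched at 1 of the 3 regions with both factors, chr6:27214800-27215309, where HINFP had 85 ChIP and 6 IgG sequences (12.3), at 5 of 13 with E2F1 listed only and at 2 of 11 with no listed E2F1. With so few sites per class these counts are a description. The NPAT region that starts at 26133779 carried a HINFP ratio of 5.67 in hTERT-RPE1 cells, and the one at 26211654 a ratio of 10.1. The same 2 places had HINFP ratios of 13 and 6.33 in U2OS cells.

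Outside the window the sites with both factors were modest in both. The 33 sites of hTERT-RPE1 cells lay on 16 chromosomes and had a median ratio of 4.25 for E2F1 and 4.50 for NPAT, and the 36 of U2OS cells lay on 15 chromosomes with medians of 4.34 and 3.82. Their intervals overlapped at every one of these sites in each line. Inside the window the E2F1 and NPAT medians were 6.88 and 10.0 for hTERT-RPE1 and 3.60 and 9.28 for U2OS. The values of both factors at these sites were bounded from below by the rule.

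The strongest of the sites outside, by the lower of the 2 lower bounds, were chr12:52959436-52960638 in hTERT-RPE1 cells and chr22:18484477-18485212 in U2OS cells. On chromosome 12 E2F1 had 125 and 19 sequences (6.30) and NPAT 50 and 3 (12.8, 5.38 to 83.5), with summits 47 bp apart. In U2OS cells this place had E2F1 at 107 and 19 (5.40) and NPAT at 53 and 18 (2.84), so NPAT missed the ratio there. The site on chromosome 22 was enriched for both factors in each line. E2F1 had 134 and 21 (6.14) in U2OS cells and 99 and 11 (8.33) in hTERT-RPE1 cells, and NPAT had 85 and 12 (6.62) and 60 and 11 (5.08). The summits of the factors were 31 and 2 bp apart.

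Besides this site, 2 others outside the window were enriched for both factors in each line. At chr2:216682010-216682576 in hTERT-RPE1 cells E2F1 had 59 and 13 sequences (4.29) and NPAT 49 and 12 (3.85), and in U2OS cells the values were 45 and 12 (3.54) and 62 and 12 (4.85). At chr1:119484247-119484908 in hTERT-RPE1 cells E2F1 had 37 and 11 (3.17) and NPAT 43 and 13 (3.14), and in U2OS cells 42 and 9 (4.30) and 39 and 12 (3.08). The 8 ratios at these places ran from 3.08 to 4.85. Of the others named by the rule, chr11:133598880-133599423 in hTERT-RPE1 cells had E2F1 at 70 and 5 (11.8) and NPAT at 73 and 13 (5.29) with summits 576 bp apart. chr16:4415388-4415990 in U2OS cells had E2F1 at 32 and 5 (5.50) and NPAT at 74 and 5 (12.5) with both summits at 4415781. The other sites of the rule were chr6:43651688-43652127, with E2F1 at 36 and 6 (5.29) and NPAT at 44 and 6 (6.43), and chr5:65475673-65476485, with 68 and 10 (6.27) and 33 and 6 (4.86), in hTERT-RPE1 cells. Those of U2OS cells were chr19:53364996-53365963, with E2F1 at 75 and 6 (10.9) and NPAT at 30 and 3 (7.75, 3.11 to 51.2), chr2:70222957-70223675, with 62 and 11 (5.25) and 46 and 6 (6.71), and chr1:174442724-174443590, with 46 and 8 (5.22) and 45 and 9 (4.60). Neither factor stood above the other at any of them by the intervals.

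The median distance between the summits was smaller where both factors were enriched than where NPAT was merely listed, but by less than its interval. At the sites outside the window the median distance was 73 bp for hTERT-RPE1 (95% interval of the median 47 to 209) and 103 bp for U2OS (57 to 225), and 18 of 33 and 18 of 36 were within 100 bp. At E2F1-enriched regions outside with a listed, not enriched NPAT counterpart the median was 176 bp for hTERT-RPE1 (739 regions) and 172 bp for U2OS (552 regions), each within the interval of the former. With at least 50 ChIP sequences the first median was 147 bp in hTERT-RPE1 cells, and with the p-value thresholds of the methods it was 186 bp in U2OS cells. Inside the window the median was 142.5 bp (14 to 1043, 6 sites) and 116 bp (13 to 1121, 3 sites), where the interval is the full range. DNA fragments of 200 to 400 bp limit the resolution of a summit, so distances under about this length do not separate binding sites.

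**Figure D4:**
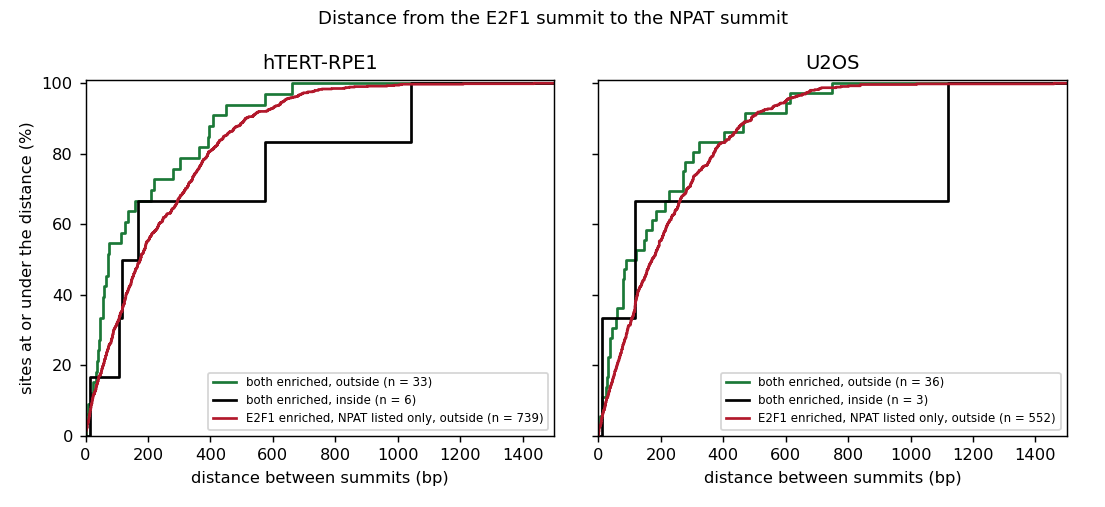
Cumulative share of sites (%) against the distance between the E2F1 and NPAT summits (bp), for sites with both factors enriched outside (green) and inside (black) the window, and for E2F1-enriched regions outside with a listed NPAT counterpart that was not enriched (red). The green medians are 73 bp for hTERT-RPE1 and 103 bp for U2OS, and the red ones are 176 and 172 bp.

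NPAT regions with many sequences were longer inside the window than outside. At the sites with both factors the NPAT region had a median length of 1399 bp against 734 bp for E2F1 in hTERT-RPE1 cells and of 3495 bp against 541 bp in U2OS cells, and NPAT was the longer at 6 of 6 and 3 of 3. Outside the window the medians were 490 bp for NPAT and 725 bp for E2F1 in hTERT-RPE1 cells, with NPAT longer at 9 of 33, and 756.5 and 683 bp in U2OS cells, with NPAT longer at 20 of 36. Length grows with the number of sequences, so regions with at least 100 ChIP sequences were also set side by side. This class has no upper limit, so the counts within it were not matched between the places. Among these, NPAT regions had a median of 2438 bp inside the window (19 regions) and 551 bp outside (25 regions) in hTERT-RPE1 cells, and 2273 bp (18 regions) and 686.5 bp (28 regions) in U2OS cells. With 30 to 99 ChIP sequences the NPAT medians were 887 bp inside and 676 bp outside in hTERT-RPE1 cells, and 769 and 749 bp in U2OS cells. E2F1 regions with at least 100 ChIP sequences had medians outside of 1028.5 bp (112 regions) and 953 bp (67 regions), and the 2 inside, both in hTERT-RPE1 cells, were 718 and 1671 bp long. The longest NPAT region inside was 4418 bp, at chr6:26139054-26143471 in U2OS cells. A ratio over such a region and a ratio over the short E2F1 region within it come from stretches of different length.

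**Figure D5:**
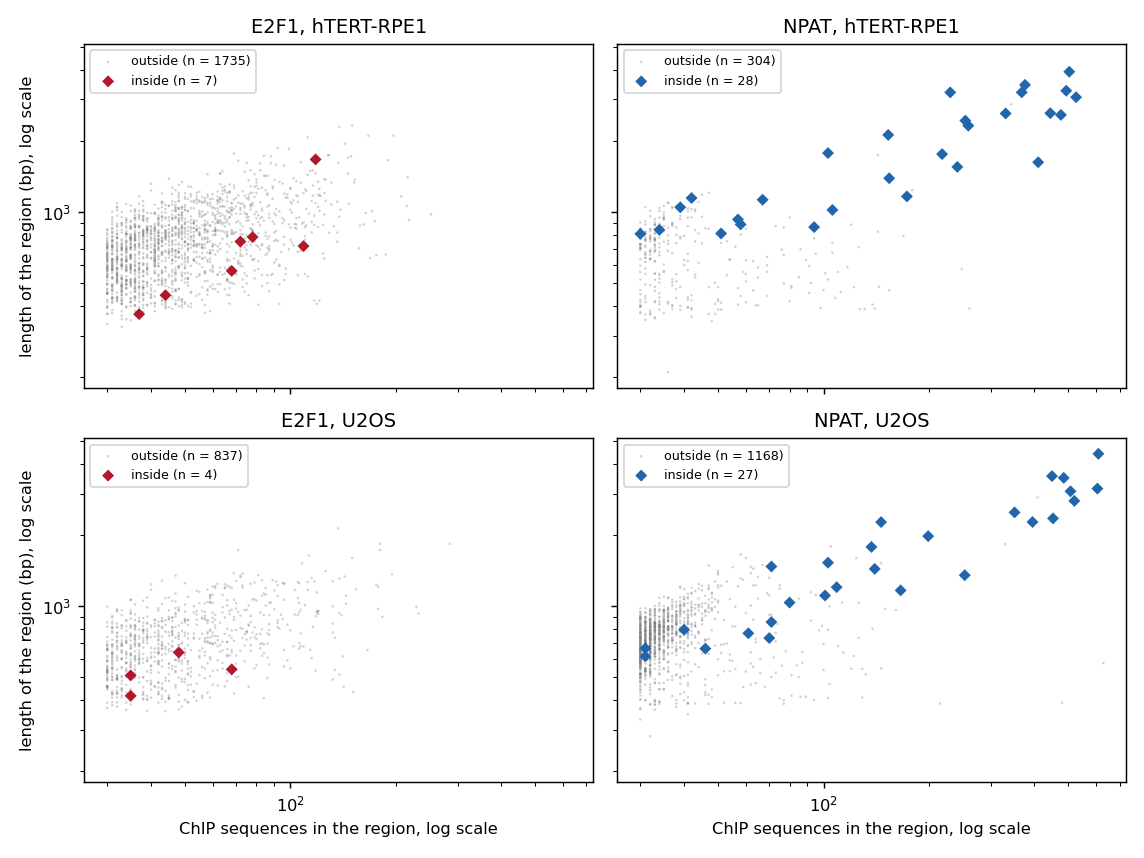
Length of each enriched region (bp) against its ChIP sequences, both on log scales, for E2F1 (left) and NPAT (right) in hTERT-RPE1 (top) and U2OS cells (bottom), outside the window in grey and inside in colour. NPAT regions inside with at least 100 ChIP sequences have median lengths of 2438 and 2273 bp, and those outside 551 and 686.5 bp.

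The E2F1 regions with the highest lower bound outside the window had no enriched NPAT region. For E2F1 in hTERT-RPE1 cells these were chrX:48440247-48440656 with 52 ChIP and 0 IgG sequences, chr22:49293323-49293731 with 119 and 4 (24.0), chr1:51206292-51207376 with 147 and 7 (18.5), chr2:131966919-131967293 with 57 and 1 (29.0, 9.83 to 2290) and chr4:1683640-1684564 with 218 and 13 (15.6). NPAT was listed at the chromosome 22 region alone, with 10 and 4 sequences (2.20). All 5 were E2F1-enriched in U2OS cells.

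In U2OS cells the E2F1 regions were chr1:200577602-200578058 with 142 and 4 sequences (28.6), chr11:58668554-58669488 with 138 and 4 (27.8), chr14:104558238-104558900 with 106 and 3 (26.8, 11.8 to 174), chr2:130655441-130655954 with 138 and 5 (23.2) and chr7:148212544-148213035 with 49 and 1 (25, 8.39 to 1974). NPAT had 13 and 2 sequences at the chromosome 1 region (4.67, 1.47 to 59.3), 12 and 3 at the chromosome 11 region (3.25, 1.08 to 22.1), and was not listed at the other 3. The 5 regions were E2F1-enriched in hTERT-RPE1 cells as well, with ratios from 9.40 to 14.6.

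The NPAT regions with the highest lower bounds outside the window were mostly without a listed E2F1 region, and each overlapped a listed CASP8AP2 region. Those of U2OS cells were chrX:58577950-58578337 with 215 ChIP and 2 IgG sequences (72.0, 29.4 to 893), chr19:32424426-32424971 with 146 and 3 (36.8, 16.3 to 239), chr7:61268261-61268647 with 77 and 3 (19.5, 8.46 to 127), chr11:51428531-51428921 with 480 and 47 (10.0) and chr16:44962289-44962676 with 43 and 1 (22, 7.32 to 1737). E2F1 was listed at the chromosome 11 region alone, with 57 and 47 sequences (1.21). CASP8AP2 had ratios from 8.06 to 30 at 4 of these regions. At the one on chromosome X its region had the same ends and the same counts as NPAT, 215 and 2, and the cause of this was not tested. The NPAT regions of chromosomes X, 7 and 11 had the same ends in the hTERT-RPE1 list. Whether these regions lie in repeated sequence was not tested. The goat IgG of the HINFP list had from 35 to 1475 sequences in the overlapping HINFP regions, some of them longer, against 1 to 47 of rabbit IgG, and the part of this in the NPAT ratios was not tested.

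In hTERT-RPE1 cells the regions were chr10:27429246-27429712 with 154 and 3 sequences (38.8, 17.2 to 252), chr10:39122163-39122564 with 64 and 1 (32.5, 11.1 to 2567), chr16:44962288-44962680 with 42 and 0, and 2 regions of chromosome Y. The latter were chrY:12366429-12366638 with 36 and 0 and chrY:10631485-10632045 with 35 and 0. E2F1 had 22 and 6 at chr10:27429246-27429712 (3.29) and was not listed at the others. CASP8AP2 was listed with 32 and 1, 56 and 1, and 38 and 0 sequences at the regions of chromosomes 10 and 16. On chromosome Y it had 27 and 0, and 32 and 0. The NPAT list of U2OS cells had 14 and 1, and 29 and 0 sequences at these places of chromosome Y. Whether the reads placed there come from chromosome Y was not tested. The overlapping HINFP regions at chr10:39122163-39122564, chr16:44962288-44962680 and chrY:10631485-10632045 had 88, 31 and 36 goat IgG sequences. Rabbit IgG had 1, 0 and 0 in these NPAT regions, and the part of this in the NPAT ratios was not tested. By chromosome, 50 of the 304 NPAT-enriched regions outside the window in hTERT-RPE1 cells lay on chromosome 10 (16.4%, against 8.93% of listed NPAT regions and 5.01% of E2F1-enriched regions), and 128 of 1168 in U2OS cells lay on chromosome 8 (11.0%, against 7.74% and 3.35%). Of the listed E2F1 regions outside, 10.2% lay on chromosome 10 in hTERT-RPE1 cells and 10.9% on chromosome 8 in U2OS cells. On chromosome 19 the shares were 7.72% for E2F1 and 8.88% for NPAT in hTERT-RPE1 cells, against 2.22% and 1.88% of listed regions.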

How the data were processed

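ChIP-Seq lists of E2F1 and NPAT in hTERT-RPE1 and U2OS cells were used, with 1 library per factor and line. Libraries were sequenced on an Illumina Genome Analyzer or HiSeq2000 and mapped to NCBI36 by the authors. The aligner, peak caller and handling of duplicate reads are not given in the sources used here, and read totals are unknown. The deposited counts of ChIP and IgG sequences are whole numbers without normalization. The height deposited by the authors is a signal, the pileup of reads at the summit. The deposited fold change is a ratio, the counts plus 1 of ChIP over IgG scaled by 1 constant per library. The p-value deposited by the authors was used in 1 alternative and carries no adjustment.

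Regions overlapped when they shared at least 1 bp. A site is a chain of overlapping enriched E2F1 and NPAT regions, and its values are those of the pair sharing the most bases. Groups were taken from the sample titles. No annotation of NCBI36 was used, so regions were named by position and not by gene. The sites named were those with both factors enriched inside the window, with every E2F1-enriched region there. They were also the 5 NPAT-enriched regions per line inside, the 5 sites per line with both factors outside, and the 5 regions per line of each factor outside with the highest lower bounds. The 2 further sites outside enriched in each line and the shares by chromosome were added after their values were seen. The members and lists were chosen with earlier results of these data known. The overlap code was tested on simulated regions. Alternatives changed the thresholds, the ratio, the overlap and the counterpart. The versions were matplotlib 3.10.9, scipy 1.17.1, pandas 2.3.3 and numpy 2.4.6, under Python 3.11.15.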

Additional observations from a re-analysis of the deposited data

How the results depend on the processing

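With 1 library per factor and line, no replicate could be left out. No paired analysis was possible because each group holds a single sample and no test was run. Of the 96 recomputed counts of sites with both factors and medians of counterpart ratios, 65 stayed within 1.5 times the count or within the interval of the median, and 31 moved. For medians inside the window at E2F1-enriched regions this interval is the full range of a few regions, so they seldom count as moved. An overlap of at least 50% of the shorter region and a counterpart chosen by the most ChIP sequences moved none of them. The 39 sites of each line are the least stable result. They were 8 in hTERT-RPE1 and 6 in U2OS cells with a ratio of at least 5, 10 and 2 with at least 50 ChIP sequences, 5270 and 3495 with no minimum of ChIP sequences, 22 and 20 with the thresholds of the methods (fold change above 2, p under 0.00001), and 24 in U2OS cells with the depth-scaled fold change. Inside the window the 3 sites of U2OS cells became 1 with a ratio of at least 5, with at least 50 ChIP sequences, and with regions of more than 50 IgG sequences left out, and with no minimum there were 5 in U2OS and 16 in hTERT-RPE1 cells. The median NPAT ratio at E2F1-enriched regions outside, 2.0 in each line, was 2.57 in hTERT-RPE1 and 2.47 in U2OS cells with a ratio of at least 5, 1.89 and 1.80 with at least 50 ChIP sequences, 3.33 and 3.25 with no minimum, 1.97 and 1.63 with the depth-scaled fold change, and 2.15 in hTERT-RPE1 cells with the p-value. The median E2F1 ratio at NPAT-enriched regions outside was 1.78 in hTERT-RPE1 and 1.70 in U2OS cells with at least 50 ChIP sequences, 3.64 and 3.0 with no minimum, 3.29 in hTERT-RPE1 cells with the p-value, and in U2OS cells 2.57 with a ratio of at least 5 and 2.36 with the depth-scaled fold change. The median NPAT ratio at E2F1-enriched regions inside in U2OS cells was 7.56 with the depth-scaled fold change. The E2F1 median inside was 1.63 in U2OS cells with a ratio of at least 5 and 1.71 with no minimum, and 2.0 in hTERT-RPE1 cells with the p-value, so the gap to the outside value was wider there, while 3 settings named in the report turned the order of the places in 1 line each. The cause of these moves was not tested, beyond the change of members that a threshold makes. In every alternative the median NPAT ratio at E2F1-enriched regions was higher inside the window than outside in each line. In U2OS cells, however, the inside median rested on 3 regions in the main setting. It rested on 1 region with a ratio of at least 5, with at least 50 ChIP sequences, and without regions of more than 50 IgG sequences. Counterparts under the listing limit have no value, so a low level of one factor could not be told from none.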
